A study of Sus scrofa with 70 samples.

Results

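The miR-17-92 cluster is a group of microRNAs (miRNAs, small RNAs that pair with messenger RNAs and lower their output) cut from a single primary transcript. Together with its paralogues on the X chromosome and in the gene MCM7, it was followed across 5 reproductive glands of the boar. Members were taken by name: any listed arm of miR-17, miR-18a, miR-18b, miR-19a, miR-19b, miR-20a, miR-20b, miR-92a, miR-106a, miR-106b, miR-93 and miR-25. Of these 12 miRNAs, 9 had entries in the small RNA table, as 11 names in 14 entries, out of 676 names in 743 entries. The other 3 (miR-25, miR-93 and miR-106b, the set in MCM7) were not listed under these names and are not analysed here.

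Small RNA and RNA-seq libraries were made from boars aged 12 months, from testis, epididymis and 3 accessory glands: the prostate, the vesicular and the bulbourethral gland. The boars were of the Banna mini-pig inbred line (BMI), bred by close inbreeding from Diannan small-ear pigs, or of the Diannan small-ear pig itself (DSE). No group was treated. Each breed and gland had 3 small RNA and 3 RNA-seq libraries, and 1 long-read (Iso-seq) library. Labels and methods do not say which libraries came from which boar, so p-values measure the spread between libraries, which may be partly technical. Glands may share boars, and tests of breed over several glands count their libraries as independent, so their p-values may be too small. In whole tissue, fewer cells of a type and less RNA per cell cannot be told apart.

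The cluster is known as an oncogenic and developmental miRNA locus. MYC and the E2F factors switch on its transcript, and its miRNAs in turn lower E2F1, the pro-apoptotic BIM (gene BCL2L11) and the cell cycle inhibitor p21 (gene CDKN1A). The 6 hairpins of the cluster fall into 4 seed groups, the seed being bases 2 to 8 of the mature miRNA, which largely sets the targets. In the testis the family is known from dividing germ cells.

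In RefSeq's annotation of Sscrofa11.1, the build of the deposited files, the miR-17-92 hairpins were at chr11:60734656-60735437 on the plus strand, within 782 bp. The paralogous cluster was at chrX:110113552-110114468 on the minus strand, within 917 bp. Each cluster held 6 hairpins, and RefSeq listed no other gene over either span. The mature sequences are shown to make the seed groups and the near-identity of paralogues visible, with the seed in capitals. RefSeq gives the sequence shown for miR-20a-5p under the name miR-20a, and no sequence for miR-20a-3p was found there. miR-363 is the sixth hairpin of the X cluster and was not a member by name.

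The miR-17 seed group, with miR-17-5p and miR-20a-5p on chromosome 11 and miR-20b and miR-106a on the X chromosome:
miR-17-5p: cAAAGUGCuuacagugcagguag
miR-20a-5p: uAAAGUGCuuauagugcaggua
miR-20b: cAAAGUGCucacagugcagguag
miR-106a: aAAAGUGCuuacagugcagguagc

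The miR-18 seed group, with miR-18a on chromosome 11 and miR-18b on the X chromosome:
miR-18a: uAAGGUGCaucuagugcagaua
miR-18b: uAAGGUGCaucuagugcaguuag

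The miR-19 seed group, with miR-19a on chromosome 11 and miR-19b in both clusters:
miR-19a: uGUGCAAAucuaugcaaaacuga
miR-19b: uGUGCAAAuccaugcaaaacuga

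The miR-92 seed group, with miR-92a in both clusters and miR-363 on the X chromosome:
miR-92a: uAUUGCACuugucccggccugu
miR-363: aAUUGCACgguauccaucuguaa

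The opposite arm of miR-17, whose seed is shared with none of the others:
miR-17-3p: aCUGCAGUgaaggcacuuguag

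Several members differ by 1 base, counted from 1 at the 5′ end. miR-17-5p and miR-20b differ by U10C, miR-17-5p and miR-106a by C1A over the 23 bases they share, miR-18a and miR-18b by A20U over 22 bases, and miR-19a and miR-19b by U11C. A read with 1 sequencing error could therefore be assigned to the wrong member, and the low levels of miR-106a, miR-20b and miR-19a are uncertain to that extent. Across the 30 libraries, miR-106a and miR-20b were at 1.25 to 8.48% and 0.753 to 12.9% of the level of miR-17-5p. miR-19a was at 2.48 to 27.9% of the level of miR-19b. The 2 entries of miR-20b held the same values in all 30 libraries, those of miR-19b stood at a ratio of 0.99 to 1.0, and the first entry of miR-92a was 1.05 to 1.18 times the other. The chromosome 11 and X copies of miR-19b and miR-92a thus cannot be told apart, and repeated names were averaged.

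Abundance is given as RPM, the library's reads on an entry scaled to a common total over all miRNA entries. By the step between low values, 28 of the libraries held whole reads, with 1294627 to 11820143 reads in testis and 13063449 to 21671650 reads in the other glands. 1 read was worth 0.77242 RPM in the shallowest testis library, so values of a few RPM in testis rest on few reads, and depth and gland cannot be told apart. The labelled testis was checked by its own miRNAs, miR-202 and miR-34c, whose summed level was 7796.6 to 13630.9 RPM in testis and 2.2 to 116.4 RPM elsewhere (miR-449a, the other marker of that list, was not listed). Protamine and other spermatid genes summed to 24426.0 TPM or more in testis and at most 997.2 TPM elsewhere.

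RPM is a share, and 1 miRNA took much of it. miR-143-3p, a miRNA of smooth muscle, made up 12.7 to 19.4% of RPM in testis, 23.1 to 78.8% in epididymis and 1.38 to 3.43% in bulbourethral gland. In vesicular and prostate gland it made up 29.4 to 50.6%, except for BMI vesicular gland 1 at 4.18% and BMI prostate gland 3 at 3.01%. Those 2 libraries also stood apart in the members, and results that rest on them are given with and without them. Across all names they correlated least with the rest of their gland, at a median r of 0.964 and 0.965, against 0.981 to 0.988 for the other vesicular and 0.982 to 0.983 for the other prostate libraries. Testis and epididymis libraries were at 0.952 to 0.973.

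The members together, 3p arms aside, took 0.111 to 0.246% of RPM in testis (median 0.18%) and 0.0172 to 0.0762% in the other glands (median 0.0469%). Of the members, miR-92a alone carried the miR-92 seed, at 768 ± 109 RPM in testis (SD, n = 6) and 300 ± 115 RPM elsewhere (n = 24). The miR-17 seed group summed to 845 ± 344 RPM in testis and 132 ± 105 RPM elsewhere. The miR-19 group summed to 136 ± 46 RPM and 43.6 ± 24.9 RPM, and the miR-18 group to 13.4 ± 7.7 RPM and 0.87 ± 0.5 RPM.

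miR-17-5p, the first miRNA of the cluster and a direct repressor of p21, was read in testis at 538, 442 and 460 RPM in BMI and at 337, 173 and 227 RPM in DSE. In epididymis it was read at 47.7, 45.4 and 35.7 RPM in BMI and 28.9, 7.19 and 23.3 RPM in DSE. All 6 testis libraries lay above all 24 others, of which BMI vesicular gland 1 was highest at 139 RPM. In vesicular gland the other BMI libraries were at 58.0 and 48.6 RPM and the DSE libraries at 36.3, 39.9 and 25.2 RPM. In prostate gland, BMI libraries were at 58.2, 39.9 and 93.5 RPM and DSE libraries at 23.9, 39.0 and 31.9 RPM. In bulbourethral gland they were at 76.8, 23.7 and 44.3 RPM and at 20.1, 14.5 and 46.5 RPM. The order of the means was testis, vesicular, prostate, bulbourethral gland and epididymis, and after testis each neighbouring pair overlapped.

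miR-20a-5p, which shares the seed, was the highest member of that group in all 30 libraries, at 1.09 to 2.87 times the level of miR-17-5p. In testis it was at 766, 529 and 567 RPM in BMI and 392, 252 and 275 RPM in DSE. In the other 24 libraries it ranged from 15.3 to 345 RPM with a median of 66.4 RPM. Only BMI vesicular gland 1 (345 RPM) and BMI prostate gland 3 (268 RPM) reached the range of testis, and without them the highest value outside testis was 130 RPM. The ratio of miR-20a-5p to miR-17-5p was 2.16 to 2.49 in vesicular gland and 1.89 to 2.87 in prostate gland, against 1.16 to 1.45 in testis and 1.17 to 1.76 in bulbourethral gland. Epididymis spanned 1.09 to 2.12.

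miR-18a was a low member with a wide difference between glands. In testis it was at 20.9, 18.6 and 19.1 RPM in BMI and 5.04, 6.09 and 7.98 RPM in DSE. The other 24 libraries lay between 0.19 and 2.11 RPM, with a median of 0.79 RPM, and none reached testis. Its X-linked paralogue miR-18b was at 0 in 17 libraries and at most at 1.47 RPM (BMI testis 3), so it did not pass the filter of 1 RPM in 3 libraries and was not tested.

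miR-19a and miR-19b were less set apart. miR-19b was at 178, 142.85 and 167 RPM in BMI testis and 111, 88.3 and 76.3 RPM in DSE testis, against 8.30 to 80.1 RPM elsewhere (median 36.6 RPM). miR-19a was at 15.5, 12.0 and 11.4 RPM in BMI testis and 6.04, 4.23 and 4.79 RPM in DSE testis, against 0.48 to 20.6 RPM elsewhere (median 2.38 RPM). The highest miR-19a values of all were in BMI prostate gland 3 (20.6 RPM) and BMI vesicular gland 1 (17.04 RPM), and without these 2 libraries the values outside testis ended at 6.82 RPM, above all 3 DSE testis libraries and below all 3 of BMI.

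miR-92a, the last hairpin of the cluster, was the most abundant member in all libraries but BMI vesicular gland 1 and BMI prostate gland 3, where miR-20a-5p was. It was at 906, 837 and 741 RPM in BMI testis and 747, 583 and 791 RPM in DSE testis, against 138 to 592 RPM elsewhere (median 284 RPM). In those 2 libraries miR-92a was at its lowest of the gland, namely in BMI vesicular gland 1 (172 RPM) and BMI prostate gland 3 (168 RPM). The order of its means put bulbourethral gland after testis, and each neighbouring pair of glands overlapped.

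The remaining arms were low. miR-20b ranged from 3.47 to 16.99 RPM in testis and 0.27 to 3.90 RPM elsewhere, and miR-106a from 3.47 to 15.5 RPM and 0.25 to 7.46 RPM. miR-17-3p ranged from 3.09 to 11.02 RPM and 0.25 to 1.83 RPM, and miR-20a-3p never exceeded 1.05 RPM and was at 0 in 6 libraries. miR-20a-3p did not pass the filter, which leaves 9 of the 11 names tested. miR-363 of the X cluster was at 15.2 ± 5.2 RPM in testis (n = 6) and 13.4 ± 11.6 RPM elsewhere (n = 24), and its log2 difference of 0.47 (SE 0.41) did not pass the test (limma adjusted p = 0.288). miR-92b-3p, a relative of miR-92a that was no member by name, was at 25.3 ± 8.7 RPM in testis against 53.2 ± 38.6 RPM elsewhere (-0.85, SE 0.29, limma adjusted p = 0.0094), short of the size required.

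**Figure D1:**
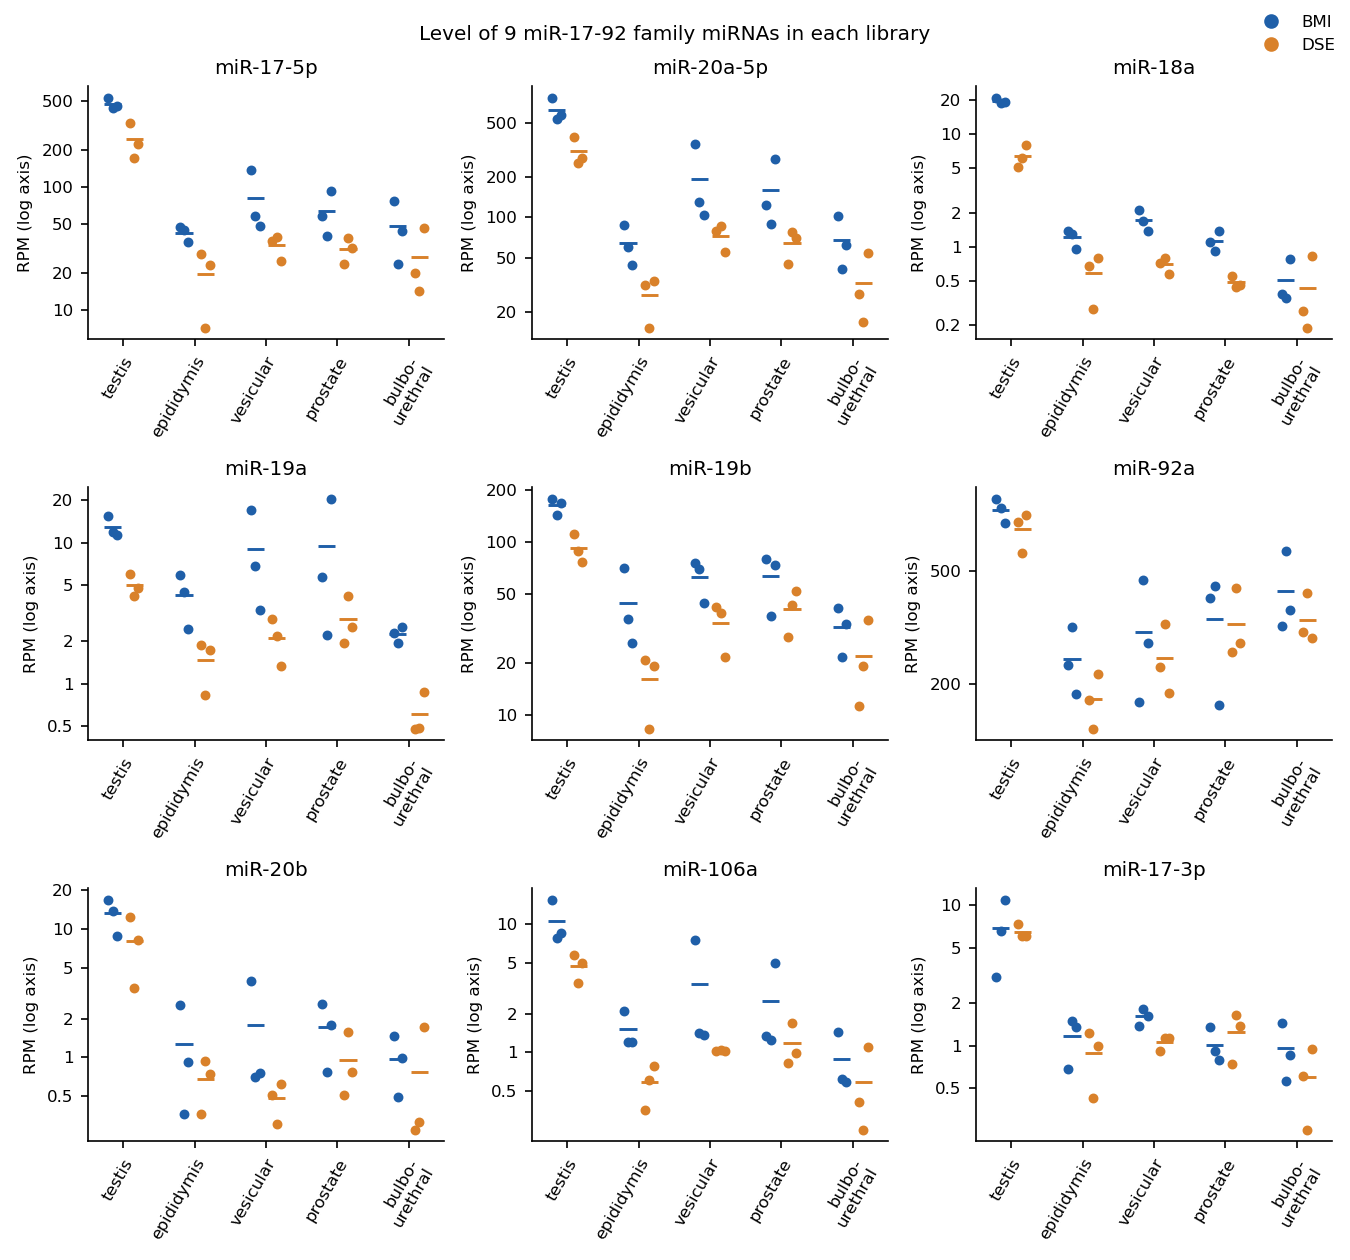
RPM on a log axis in each of the 30 small RNA libraries for the 9 members tested, by gland, with BMI in blue, DSE in orange and bars at the mean of 3 libraries. The testis libraries are highest for miR-17-5p, miR-18a and miR-17-3p with no overlap, while for miR-19a 2 BMI libraries (vesicular gland 1 and prostate gland 3) lie above all testis libraries.

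The first comparison asked how the testis differed from the mean of the other 4 glands. All 9 members tested were higher in testis on the RPM scale, but so were most miRNAs. limma on log2(RPM + 1) called 9 of 9 members higher, at an adjusted p below 0.05 and a log2 difference of at least 1, where 59% of the 468 names tested were called higher and 4.06% lower. The log2 differences of members ran from 1.23 to 3.15 with a median of 1.85, against a median of 1.33 over all names. Among the members, miR-17-5p was at 3.15 (SE 0.28, adjusted p = 6.49e-11), miR-18a at 2.77 (SE 0.12, adjusted p = 2.12e-17) and miR-20a-5p at 2.70 (SE 0.27, adjusted p = 7.07e-10). The 1 RPM added compresses the low members, and their order followed from it. With 0.1 RPM added, miR-18a came first at 3.75, before miR-20b at 3.35, miR-17-5p at 3.19 and miR-20a-5p at 2.72, and the plain ratios of mean RPM were 15.3 for miR-18a, 9.91 for miR-20b and 8.32 for miR-17-5p. miR-19a (1.23, SE 0.27) and miR-92a (1.44, SE 0.22) lay close to the median of all names. Of the members, 3 of 9 did not overlap between testis and the other glands (miR-17-5p, miR-17-3p and miR-18a), where 32.5% of all names were higher in testis with no overlap. Without BMI vesicular gland 1 and BMI prostate gland 3 this held for 6 of 9, where 36.3% of all names did.

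For most members the call depended on the scale, while miR-17-5p, miR-18a and miR-20b were called on RPM, with size factors and by edgeR. Size factors from the median of ratios, which set the typical miRNA equal between libraries, moved the median of all names to 0.13 and turned 276 names higher and 19 lower into 105 higher and 70 lower. By that scale 4 members were called higher, where 22.4% of names were: miR-17-5p (2.89-fold), miR-18a (2.84-fold), miR-20b (2.29-fold) and miR-20a-5p (2.10-fold). On the log2 scale, miR-106a (0.61), miR-17-3p (0.65) and miR-19b (0.19) did not pass, and miR-19a (-0.06) and miR-92a (-0.20) changed sign. edgeR on the recovered reads of 28 libraries called miR-18a (2.08), miR-20b (1.45) and miR-17-5p (1.29), with 137 names higher and 108 lower. On both of these scales miR-19a and miR-92a were not called in either direction.

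**Figure D2:**
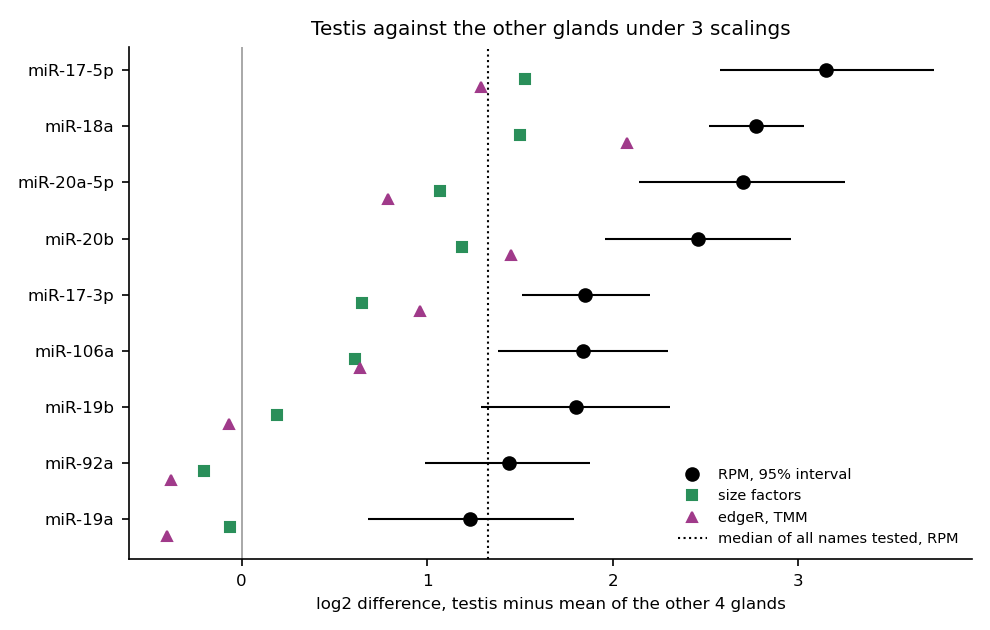
Log2 difference of testis from the mean of the other 4 glands for the 9 members tested, on the RPM scale with its 95% interval (black circles), with size factors (green squares) and by edgeR with TMM scaling (purple triangles), the dotted line marking the median of all 468 names on the RPM scale. miR-17-5p, miR-18a and miR-20b stay above 1 on each scale, while miR-19a and miR-92a lie below 0 on the other 2 scales.

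A ratio between members within a library needs no scale. The other members tested, except for the low miR-17-3p, were therefore set against miR-92a, with exact two-sided permutation tests over libraries. These 7 ratios, tested for testis and for breed (14 tests), were chosen after the values were seen. miR-17-5p was 28.7 to 62.0% of miR-92a in testis (median 49.0%) and 3.46 to 80.6% elsewhere (median 13.0%). In the mean of log2 ratios, that was 3.37 times higher in testis (exact permutation p = 3.33e-04, adjusted p = 0.00156). The 2 highest ratios outside testis were those of BMI vesicular gland 1 (80.6%) and BMI prostate gland 3 (55.5%), without which the difference was 3.9 times.

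Relative to miR-92a, miR-18a was 5.72 times higher in testis (exact permutation adjusted p = 2.36e-04), miR-20b 4.27 times (adjusted p = 0.00182), miR-20a-5p 2.43 times (adjusted p = 0.0266) and miR-106a 2.32 times (adjusted p = 0.0471). Against miR-92a, miR-19b was 1.31 times as high in testis (exact permutation adjusted p = 0.352) and miR-19a 1.14 times (adjusted p = 0.763), and neither passed the test. Within DSE alone, with 3 and 12 libraries, the ratios of miR-17-5p, miR-18a, miR-20b and miR-20a-5p passed (exact permutation adjusted p of 0.0154 to 0.0423). Within BMI, which holds the 2 libraries that stand apart, only that of miR-18a passed (adjusted p = 0.0154). Over all libraries, miR-17-5p, miR-18a, miR-20a-5p, miR-20b and miR-106a, but not the miR-19 members, were thus in unequal proportion to miR-92a between testis and the other glands. As miR-92a comes from both clusters, these ratios are not proportions within a single cluster. miR-18a, with the widest difference, was 0.675 to 2.58% of miR-92a in testis.

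**Figure D3:**
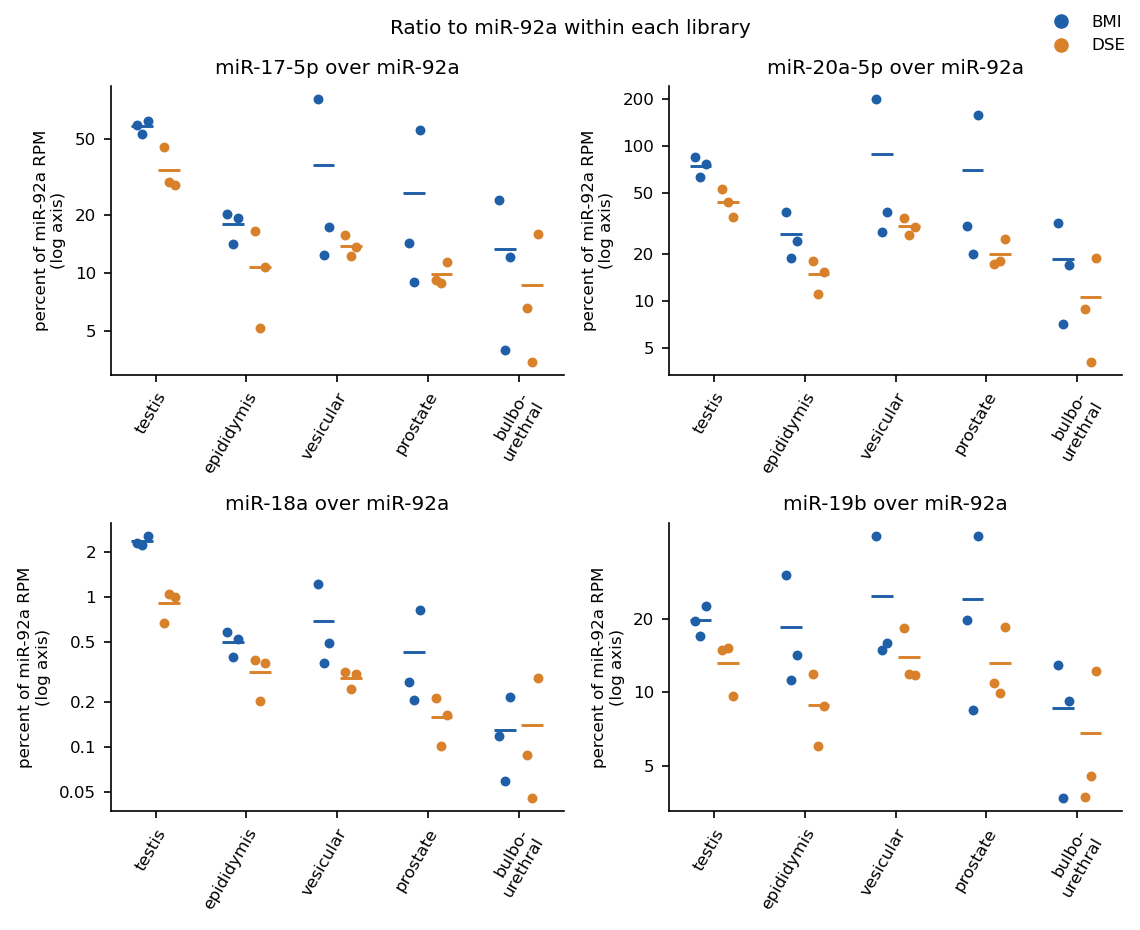
Level of 4 members as a percent of miR-92a in the same library, on a log axis, by gland and breed, with bars at the mean of 3 libraries. The ratio of miR-18a is highest in testis in all 3 BMI libraries, and the 2 isolated high points in vesicular and prostate gland are BMI vesicular gland 1 and BMI prostate gland 3.

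Some markers of other cell types also differed between testis and the other glands. miR-126, an endothelial miRNA, summed over its arms to 10572.2 to 18353.2 RPM in testis and 982.2 to 12963.5 RPM elsewhere, and its sum was the highest of the gland in BMI prostate gland 3 (12963.5 RPM) and in BMI vesicular gland 1 (5858.2 RPM). The 4 listed epithelial miRNAs of 6 (miR-141, miR-200b, miR-205 and miR-429) summed to 189.3 to 313.6 RPM in testis and 1801.2 to 43441.2 RPM elsewhere. The erythroid miRNAs, all 3 listed, summed to 1986.0 to 6030.1 RPM in testis and 249.7 to 4486.0 RPM elsewhere. The 4 leukocyte miRNAs, all listed, summed to 136.3 to 246.2 RPM in testis and 18.8 to 236.5 RPM elsewhere. The miRNAs of skeletal muscle, all 4 listed, summed to 2466.2 to 3666.2 RPM in testis and 26.8 to 6276.9 RPM elsewhere. The RNA-seq genes listed for 3 of these cell types did not follow the miRNAs. In testis HBB of erythroid cells (-1.79, adjusted p = 0.00418) and PTPRC of leukocytes (-1.43, limma adjusted p = 5.01e-04) were called lower, and PECAM1 of endothelium was at -0.88 (adjusted p = 0.0305), which reached -1.13 and was called with size factors. The part of these cells in the members' levels was not tested.

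Between the arms of a hairpin, both arms were listed for miR-17 and miR-20a. The mean log2 ratio of the 5p to the 3p arm, with 1 RPM added to each, was 5.53 in testis and 4.23 elsewhere for miR-17 (SE of the difference 0.26, limma adjusted p = 1.31e-04), where 30.1% of the 83 hairpins tested were called. Its 3p arm did not reach 10 RPM in 3 libraries and lay near the 1 RPM added. With nothing added, miR-17-5p was 28.9 to 174 times miR-17-3p in testis (median 43.7) and 17.1 to 118 times elsewhere (median 33.9), which overlapped. With 0.1 RPM added, the difference was 0.64 for miR-17 (SE 0.28, limma adjusted p = 0.0739), which no longer passed, where 24.1% of hairpins were called. The ratio of miR-20a was called with either amount added (2.52 and 2.18), but with its 3p arm at 0 in 6 libraries and never above 1.05 RPM it largely restates the level of miR-20a-5p and is not read as a difference between arms. In epididymis against the accessory glands the ratio of miR-17 was not called (-0.54), where 6.02% of hairpins were.

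Among the other glands, epididymis was compared with the mean of the 3 accessory glands. No member was called, where 14.1% of names were. Of 9 log2 differences 8 were below 0, the lowest being miR-20a-5p at -0.94 (SE 0.28, limma adjusted p = 0.013), short of the size required. 3 members had an unadjusted p below 0.05, where 40.8% of names did. With size factors and by edgeR, miR-20a-5p passed as lower in epididymis (-1.16 and -1.21), where 5.34% and 4.91% of names did, but with RPM recomputed without miR-143-3p it was at -0.17, and miR-92a (0.18), miR-17-5p (0.18) and 5 other members changed sign.

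In bulbourethral gland against the mean of vesicular and prostate gland, 2 of 9 members were called lower, miR-20a-5p (-1.21, SE 0.30, limma adjusted p = 0.00252) and miR-19a (-1.20, SE 0.30, adjusted p = 0.00269), where 6.84% of names were called lower. Without BMI vesicular gland 1 and BMI prostate gland 3 these were -0.97 and -0.88, and no member was called, where 6.41% of names were called lower. By edgeR 5 members were called lower, where 12.8% of names were, and with RPM recomputed without miR-143-3p 4 were, where 13.7% were. miR-92a differed in the other direction by 0.37 (SE 0.24) and did not pass, and was at -0.15 without miR-143-3p. Between vesicular and prostate gland limma called no member, where 15% of names were called. All 9 log2 differences lay between -0.27 and 0.27, none had an unadjusted p below 0.05, and edgeR called none. With size factors none was called either, but 2 had an unadjusted p below 0.05, where 28.4% of names did. There 1 had an adjusted p below 0.05 at any size, where 20.3% did.

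The second question was whether the members differed between the inbred BMI and its founder breed. On average over the 5 glands all 9 log2 differences of DSE from BMI were below 0, with a median of -0.66 against -0.33 over all names. limma called 3 members lower in DSE, where 4.49% of names were: miR-19a (-1.16, SE 0.22, adjusted p = 2.99e-04), miR-20a-5p (-1.15, SE 0.22, adjusted p = 3.06e-04) and miR-17-5p (-1.03, SE 0.22, adjusted p = 0.00102). miR-18a (-0.65), miR-19b (-0.86), miR-106a (-0.66) and miR-20b (-0.50) had adjusted p below 0.05 with a smaller difference, so 7 of 9 members had such a p at any size, where 41.5% of names did, and miR-92a (-0.24, adjusted p = 0.274) and miR-17-3p (-0.13, adjusted p = 0.462) did not. Without BMI vesicular gland 1 and BMI prostate gland 3 the 3 called members came to -0.91, -0.96 and -0.88 and missed the size required, where 5.77% of names were called lower. With size factors the median of all names moved to -0.01 and no member was called, where 1.71% of names were called and 0.427% lower. There miR-19a was at -0.84, miR-20a-5p at -0.67 and miR-17-5p at -0.55, while miR-92a (0.26) and miR-17-3p (0.11) changed sign, as they did by edgeR and without miR-143-3p. By edgeR, 1 member was called, miR-19a at -1.36, where 2.99% of names were called lower. At any size, an adjusted p below 0.05 was reached by 3 members with size factors, 2 by edgeR and 4 without miR-143-3p. The shares of names were 18.2%, 12.2% and 13.7%.

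Relative to miR-92a, which needs no scale, miR-19a was 0.395 times as high in DSE as in BMI within glands (exact permutation adjusted p = 3.59e-04), miR-20a-5p 0.525 times (adjusted p = 0.0052), miR-18a 0.533 times (adjusted p = 0.0052) and miR-17-5p 0.567 times (adjusted p = 0.0191). Without the 2 libraries that stand apart, these ratios were 0.54 times for miR-19a (exact permutation adjusted p = 0.00114), 0.671 times for miR-20a-5p (adjusted p = 0.0145), 0.621 times for miR-18a (adjusted p = 0.0125) and 0.706 times for miR-17-5p (adjusted p = 0.0559), so that of miR-17-5p no longer passed. miR-20b relative to miR-92a was 0.633 times as high, which did not pass (exact permutation adjusted p = 0.155). The ratio was 0.638 times for miR-19b (adjusted p = 0.0254) and 0.562 times for miR-106a (adjusted p = 0.0391) in the same permutation tests, and without the 2 libraries 0.742 times (adjusted p = 0.0858) and 0.768 times (adjusted p = 0.155).

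In testis, 1 of 9 members was called between breeds, where 3.42% of names were called lower: miR-18a, lower in DSE by 1.49 on the log2 scale (SE 0.22, limma adjusted p = 1.10e-05). Its 3 BMI values of 18.6 to 20.9 RPM lay above the 3 DSE values of 5.04 to 7.98 RPM. miR-17-5p, miR-19a, miR-19b, miR-20a-5p and miR-106a also did not overlap between breeds in testis, being lower in DSE, so 6 of 9 members did not overlap where 17.3% of names were lower in DSE with no overlap. The log2 differences of the other 5 ran from -0.83 to -1.21 and did not pass the test, except that of miR-19a (-1.21) without the 2 libraries that stand apart (limma adjusted p = 0.0121), where 3.63% of names were called lower. With size factors miR-18a in testis came to -1.22 and passed, and by edgeR to -1.53 with an adjusted p of 0.105. In the test of whether testis differed from the other glands alike in both breeds, 1 of 9 members was called, miR-18a (-1.05, DSE minus BMI, limma adjusted p = 0.00363), where 9.83% of names were called and 2.14% in that direction. That call was lost with size factors (-0.98) and by edgeR (-1.12).

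Some markers, and depth, also differed between breeds in testis. Of the RNA-seq markers of testis cells, the spermatocyte genes SYCP1 (-0.83, adjusted p = 0.0151) and SYCP3 (-0.87, adjusted p = 0.0362) were lower in DSE at less than the size required, and the Leydig cell gene INSL3 was called higher (1.09, limma adjusted p = 0.0327). Neither the 4 spermatid genes (-0.40 to -0.69) nor the 2 Sertoli cell genes (0.57 and 0.61) passed, nor did the other Leydig cell gene, CYP17A1 (0.64). Among the miRNAs, the sum of miR-126 was 15064.5 to 18353.2 RPM in BMI testis and 10572.2 to 13511.9 RPM in DSE testis. The testis miRNAs summed to 7796.6 to 10693.9 RPM in BMI and 12784.2 to 13630.9 RPM in DSE, and those of smooth muscle to 128804.4 to 169250.6 RPM and 174924.8 to 195864.5 RPM. None of these 3 sums overlapped between breeds, where 17.3% of single names were lower in DSE with no overlap. The sums of the erythroid, leukocyte, skeletal muscle and epithelial miRNAs did overlap. Read depth did not overlap, at 1294627 to 2722580 reads in BMI testis and 2978040 to 11820143 reads in DSE testis. The part of these cells and of depth in the breed differences was not tested.

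In epididymis, 1 of 9 members was called between breeds, miR-19b, lower in DSE by 1.38 (SE 0.44, limma adjusted p = 0.048), where 8.55% of names were called lower. Its BMI values were 70.7, 35.8 and 26.1 RPM and its DSE values 20.7, 8.30 and 19.1 RPM, which did not overlap. The same 6 members as in testis were lower in DSE with no overlap there, where 20.3% of names were. The call of miR-19b was lost in 23 of the 30 fits that left out 1 library. The median of all names was -0.53 in this contrast, and miR-19b came to -0.63 with size factors (adjusted p = 0.622), -0.74 without miR-143-3p (limma adjusted p = 0.646) and -0.99 by edgeR (adjusted p = 0.608), none of which passed. In vesicular gland 8 of 9 members were lower in DSE with no overlap (all but miR-92a), where 29.7% of names were, and without BMI vesicular gland 1 these were again 8, where 47.2% were. In prostate gland it was 3 of 9 (miR-17-5p, miR-18a and miR-20a-5p), where 10% of names were and 23.3% without BMI prostate gland 3, and in bulbourethral gland 1 of 9 (miR-19a), where 30.8% were. limma called no member in these 3 glands, where 1.28%, 0.855% and 4.27% of names were called. At an unadjusted p below 0.05 there were 5 members in vesicular, 3 in prostate and 2 in bulbourethral gland, where 22.2%, 8.33% and 24.8% of names were, and edgeR called no member in any of the 3. These counts were 2, 0 and 2 without BMI vesicular gland 1 and BMI prostate gland 3, where 19%, 7.48% and 27.8% of names were. With size factors they were 0, 1 and 0, where 13.5%, 10.9% and 7.05% were. Without BMI vesicular gland 1 and BMI prostate gland 3, miR-19a in bulbourethral gland passed (-1.02, limma adjusted p = 0.0498), where 7.48% of names were called lower. In epididymis miR-19a (-1.06) and miR-20a-5p (-1.26) then passed beside miR-19b, where 12.8% of names were called lower. With size factors and by edgeR, miR-92a and miR-17-3p were above 0 in epididymis, vesicular and bulbourethral gland.

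Some sums of marker miRNAs were lower in DSE in these glands too. Of all names, 20.3% in epididymis, 29.7% in vesicular, 10% in prostate and 30.8% in bulbourethral gland were lower with no overlap. The epithelial miRNAs summed to 6599.3 to 22743.9 RPM in BMI and 1801.2 to 4554.4 RPM in DSE epididymis, to 38108.9 to 43441.2 RPM and 31006.7 to 35754.7 RPM in vesicular gland, and to 24158.1 to 37028.2 RPM and 7106.4 to 20160.4 RPM in prostate gland, each with no overlap. The erythroid sum did not overlap in epididymis (2606.4 to 4486.0 RPM in BMI and 554.4 to 1980.3 RPM in DSE). In vesicular gland the leukocyte sum (62.9 to 85.8 RPM and 18.8 to 52.8 RPM), the skeletal muscle sum (1163.2 to 1627.4 RPM and 221.5 to 672.7 RPM) and that of miR-126 (2003.3 to 5858.2 RPM and 982.2 to 1916.3 RPM) did not overlap either, nor did that of miR-126 in bulbourethral gland (2570.8 to 3828.3 RPM and 2100.2 to 2524.6 RPM). The smooth muscle sums overlapped in all 4 glands. The part of these cells in the breed differences was not tested.

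**Figure D4:**
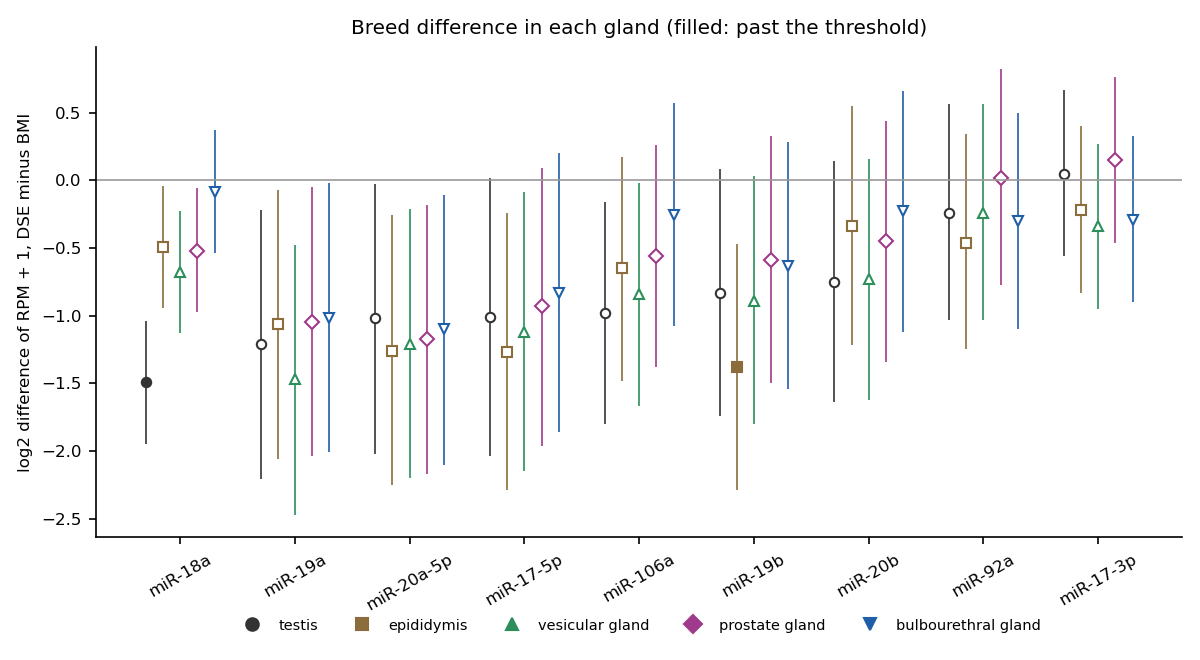
Log2 difference of DSE from BMI on the log2(RPM + 1) scale in each gland, with 95% intervals, for the 9 members tested (filled symbols passed the threshold). All but 3 of the points lie below 0, and the 2 filled ones are miR-18a in testis (-1.49) and miR-19b in epididymis (-1.38).

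By the likeness of log2(RPM + 1) over the 10 group means, among 243 known miRNAs with at least 10 RPM in a group, the mean profile of the 6 chromosome 11 miRNAs was followed most closely by miR-190a (Pearson r = 0.974), let-7f-3p (0.967) and miR-425-5p (0.958). Mean levels of miR-425-5p were 1029.7 RPM in testis and 225.0 RPM elsewhere, and those of miR-190a 10.2 and 1.6 RPM. For the 5 members of the X cluster, which share miR-19b and miR-92a with it, these were miR-24-1-5p (0.962), let-7f-3p (0.959) and miR-190a (0.958). These are descriptions over groups that share the scale described above.

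The primary transcript of the cluster, MIR17HG in other mammals, had no row under that symbol in the RNA-seq table, and no hairpin transcript of the 2 clusters in the deposited annotation had a row. No Iso-seq isoform covered the chromosome 11 hairpins on the plus strand. On the minus strand, a non-coding isoform of 2 exons, PB.3171.1, ran from chr11:60735427-60746155 and ended within the last hairpin, that of miR-92a. It was supported by 2 full-length reads, 1 in DSE bulbourethral gland and 1 in BMI vesicular gland, and reached at most 2.117 TPM in any RNA-seq library.

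The hairpins MIR25 and MIR106B were annotated inside MCM7 on chromosome 3, at chr3:8006716-8006799 and chr3:8007136-8007217 on its minus strand. MCM7, a subunit of the replicative helicase, was at 65.1 ± 20.3 TPM in testis (SD, n = 6) and 27.4 ± 9.7 TPM in the other glands (n = 24). The lowest testis library was at 38.5 TPM and the highest elsewhere at 47.6 TPM, so the groups overlapped. Its log2 difference on the log2(TPM + 1) scale was 1.24 (SE 0.16, limma adjusted p = 1.68e-07), where 34.6% of the 19796 genes tested were called higher in testis and 12.7% lower. The median over all genes was 0.31. With size factors, which moved that median to 0.11, MCM7 came to 0.98 and missed the size required.

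Of the 9 regulators listed for the cluster, 1 was higher and 2 were lower in testis, where 34.6% of all genes were higher and 12.7% lower. MYC, the activator best known for the cluster, was at 1.68 ± 0.46 TPM in testis and 23.1 ± 14.5 TPM elsewhere, with no overlap, a log2 difference of -2.90 (SE 0.36, limma adjusted p = 7.49e-08). MYCN, its neuronal relative, was at 4.01 ± 0.99 TPM and 0.54 ± 0.39 TPM, again with no overlap (1.72, SE 0.13, adjusted p = 8.46e-12). CCND1, cyclin D1, was lower (-2.40, SE 0.20), at 5.35 to 9.23 TPM in testis and 17.9 to 80.1 TPM elsewhere. E2F1 (0.90), E2F3 (0.78) and E2F2 (0.01), named after their values were seen, did not pass.

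Of the genes listed as described targets of the family, 23 were tested. In testis 6 were lower, where 12.7% of all genes were, and 2 higher, where 34.6% were, with a median log2 difference of -0.02 against 0.31 over all genes. The largest differences were those of THBS1 (-5.21, SE 0.57, limma adjusted p = 7.78e-09), an inhibitor of vessel growth, CCND1 (-2.40), the BMP receptor BMPR2 (-1.71, SE 0.33, adjusted p = 4.57e-05) and HIF1A (-1.59, SE 0.28, adjusted p = 1.66e-05). THBS1 was at 0.31 to 1.15 TPM in testis and 1.10 to 1331.93 TPM elsewhere, so its groups just overlapped. The 2 called higher were ESR1 (1.05) and CDKN1C (1.01), and with size factors, which moved the median of all genes to 0.11, neither passed while 6 targets were again lower. The share of all genes called lower on that scale is not given here. BCL2L11 (-0.33) and CDKN1A (0.89), named for the background above, did not pass. KRT8 and EPCAM, epithelial genes, summed to 8.4 to 36.6 TPM in testis and 404.0 TPM or more elsewhere, and the part of the tissue's makeup in these values was not tested.

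Of 12 genes of cell division, 11 were tested (MKI67 had no row under its symbol) and 8 were higher in testis, where 34.6% of all genes were, with a median log2 difference of 1.93 against 0.31 over all genes. The largest differences were those of the mitotic checkpoint kinase BUB1 (5.70, SE 0.24, limma adjusted p = 5.73e-17), the cyclin CCNB1 (4.12, SE 0.32, adjusted p = 1.35e-11), the topoisomerase TOP2A (3.98, SE 0.31, adjusted p = 1.48e-11) and AURKB (3.28, SE 0.24, adjusted p = 5.43e-12). BUB1 was at 39.4 to 137 TPM in testis and 0.06 to 10.5 TPM elsewhere. Between breeds in testis, none of the 11 division genes, 23 targets or 9 regulators was called, with medians of -0.66, -0.05 and 0.21 against -0.05 over all genes, where 4.78% of genes were called. On average over the 5 glands none of these was called either, where 0.384% of genes were.

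**Figure D5:**
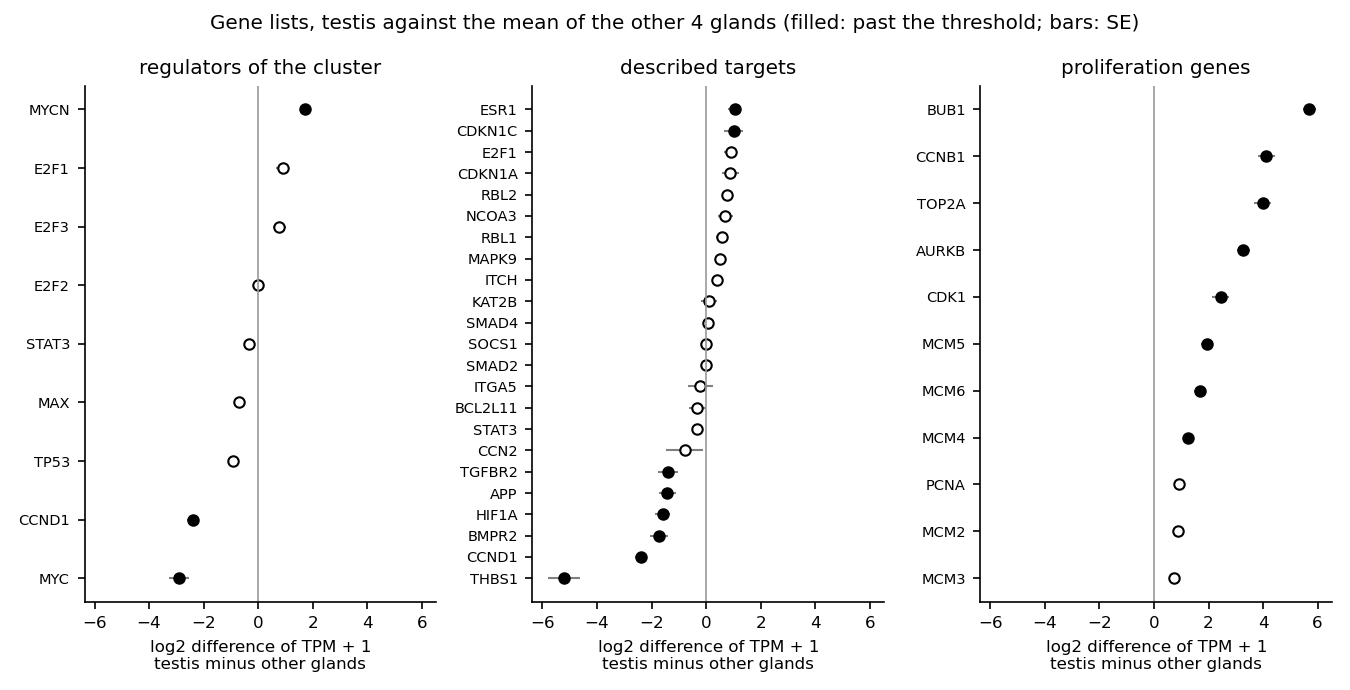
Log2 difference of testis from the mean of the other 4 glands on the log2(TPM + 1) scale, with SE bars, for the regulators, described targets and division genes tested (filled symbols passed the threshold). MYC (-2.90) and MYCN (1.72) lie on opposite sides of 0, 6 targets are filled on the left and 2 on the right, and the 8 filled division genes are all on the right.

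In epididymis against the accessory glands, 1 regulator (E2F3, 1.43), 2 targets (HIF1A, 1.37, and ESR1, 1.32) and 3 division genes (BUB1, 2.24, MCM5, 1.25, and AURKB, 1.13) were called higher, where 17.7% of genes were. THBS1 was called lower (-2.40), where 2.42% of genes were. With size factors, which moved the median of all genes from 0.41 to 0.03, BUB1 (1.87) was the 1 division gene called and E2F3 (1.04) was again higher, but HIF1A (0.77) and ESR1 (0.95) did not pass. On that scale MYC (-1.09) and the targets KAT2B (-1.13) and RBL1, the latter just at the size required, were called lower beside THBS1 (-2.95), so the targets went from 2 higher and 1 lower to 0 higher and 3 lower. Shares of all genes called with size factors are not given here, so this change is not read against them. On the TPM scale all 4 spermatid genes were also called higher (from ODF1 at 1.73 to PRM1 at 4.68), as were the smooth muscle genes ACTA2 (3.35) and MYH11 (3.73) and the erythroid gene HBB (2.15), all of which passed with size factors too. The epithelial gene KRT8 was at -0.94, and was called lower with size factors (-1.55). Spermatid genes summed to 1.1 to 997.2 TPM in epididymis, and the part of these cells in the differences was not tested.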

How the data were processed

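Small RNA reads were trimmed by the authors, cleared of other small RNAs with Bowtie 1.3.1 and quantified on known and predicted miRNAs with miRDeep2. The deposited values are RPM with 2 decimals. RNA-seq values were deposited by the authors as TPM from Salmon 1.9.0, and were summed per gene here. Iso-seq values were deposited by the authors as counts of full-length reads, of which only those near the hairpins were used. The start coordinates of the deposited annotation (a unit of its own, other) are on Sscrofa11.1, and sequences came from RefSeq's annotation and genome of that build.

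Members, lists and ratios were chosen with earlier results of these data known. Repeated names were averaged. Names with at least 1 RPM in at least 3 of 30 libraries (468), and likewise 19796 genes by TPM, were fitted as log2(value + 1) with limma 3.58.1, with 10 groups and a variance trend, in R 4.3.3. The p-values were adjusted by Benjamini-Hochberg over all features, and calls needed an adjusted p below 0.05 and a log2 difference of at least 1. Fold changes of low miRNAs or genes are understated on this scale. In 28 libraries at least 96.8% of low RPM values were whole multiples of 1 read within 0.1, and those reads were tested with edgeR 4.0.16, which called 245 names in testis. The other 2 libraries were left out of that test.

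All listed names were accounted for. Values per library were given for the higher arms, ranges for the others, and lists show up to 4 called genes with the largest difference in testis. MCM7 was given as a host gene, and genes outside that rule were named after their values were seen. Ratios were tested by exact permutation over libraries. The ratios, the fits without the 2 libraries that stand apart and those without miR-143-3p were chosen after seeing the data. The scripts were tested on simulated data. Figures were drawn with matplotlib 3.10.9.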

Additional observations from a re-analysis of the deposited data

Results flagged for a closer look

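The difference of testis from the other glands was not the same in both breeds for miR-18a. It was smaller in DSE, with a log2 difference of -1.05 between the breeds (limma interaction term, SE 0.25, adjusted p = 0.00363), where 9.83% of names passed in either direction. In testis miR-18a was at 18.6 to 20.9 RPM in BMI and 5.04 to 7.98 RPM in DSE. The value was -0.98 with size factors, -0.73 with a pseudocount of 0.1, -0.92 without DSE testis 1 and -1.12 by edgeR (adjusted p = 0.692), none of which passed. No other member passed this test.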

How the results depend on the processing

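Counts of called members changed with the scale. With size factors, 4 members were called higher in testis, where 22.4% of names were, and 1 lower in epididymis against the accessory glands, where 5.34% were. No member was called for breed in epididymis, for breed over the 5 glands or for the breed difference of the testis contrast. The shares of names called there were 1.07%, 1.71% and 3.42%. On that scale, miR-19a (-0.06) and miR-92a (-0.20) turned in testis. edgeR called 3 higher in testis, and as lower 5 in bulbourethral gland, 1 in epididymis and 1 for breed over the glands. The shares of all names in those directions were 29.3%, 12.8%, 4.91% and 2.99%. It called 0 for breed in testis, in epididymis and for the breed difference of the testis contrast, where 1.28%, 1.28% and 0.427% of names were called. By edgeR, miR-19a (-0.40), miR-19b (-0.07) and miR-92a (-0.38) turned in testis. Without BMI vesicular gland 1 and BMI prostate gland 3, counts were 0 in bulbourethral gland and for breed over the glands, where 13.9% and 5.98% of names were called. In those fits 3 members were lower in DSE in epididymis, 2 in testis and 1 in bulbourethral gland, where 12.8%, 3.63% and 7.48% of names were. Without miR-143-3p, 4 members were called lower in bulbourethral gland, where 13.7% of names were, and 1 lower in DSE over the glands, where 2.22% were. The count for breed in epididymis was then 0, where 1.01% of names were called. The breed count in epididymis was 0 also with a pseudocount of 0.1, with no filter and without the testis libraries, and with a pseudocount of 0.1 that of the breed difference of the testis contrast was 0. Shares of all names at these last settings are not given here. The cause of these changes was not tested.

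With a pseudocount of 0.1, 1 arm ratio was called in testis, where 24.1% of hairpins were. At that setting 5 regulators were called in testis, and 3 regulators and 5 targets in epididymis. With size factors, 2 regulators and 1 division gene were called in epididymis. Shares of all genes called at these settings are not given here, so the counts are not read against them. With both arms required at 10 RPM no member hairpin was tested, which left 0.

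Leaving out 1 library at a time gave 9 to 9 members in testis, 0 to 1 in epididymis (1 without BMI epididymis 1, DSE epididymis 1 or 3, or DSE bulbourethral gland 2), 2 to 3 in bulbourethral gland and 0 between vesicular and prostate gland. For breed it gave 1 to 2 in testis (2 without BMI prostate gland 3), 0 to 2 in epididymis, 0 to 1 in vesicular gland (1 without BMI vesicular gland 3 or BMI prostate gland 3), and 2 to 3 over the glands. The breed difference of the testis contrast gave 0 to 1 (0 without DSE testis 1). Targets in epididymis gave 3 to 5 (5 without DSE epididymis 1). Shares of all names or genes in these fits are not given here.

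With the replicate number as a block, all counts were as without it: 9 members for testis, 0 for epididymis, 2 for bulbourethral gland, and 3 for breed over the glands. Samples that share a number showed no common deviation in the median, but values spread widely. Over 60 pairs across glands r ran from -0.62 to 0.54 (median 0.05), and over 15 across breeds from -0.56 to 0.41 (median 0.08). The numbers were not taken as pairs, and these values cannot tell whether libraries share a boar. In testis, 1 read in the shallowest library was worth 0.77242 RPM, which limits the members at a few RPM.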
